A study of Mus musculus with 18 samples.

Results

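The 42 genes described here encode proteins that carry cells through mitosis and cytokinesis, and all 42 were among the 22609 gene symbols listed in every one of 18 mouse RNA sequencing libraries. They were chosen by name and fall into 7 roles: chromosome structure, cyclins and mitotic kinases, the chromosomal passenger complex, the kinetochore and spindle checkpoint, ubiquitin-driven exit, spindle motors and microtubule proteins, and cytokinesis. The mice were wild-type animals of the inbred strain C57BL/6J, 4 weeks old when the diets began, and heart, kidney and liver were taken. For 21 days they were fed standard chow or a ketogenic diet, in which fat made up 90%, protein 9.7% and carbohydrate 0.3%. Each of the 6 groups of organ and diet had 3 libraries that the labels call biological replicates, and no group carried a genetic change. The title of the series concerns p53-dependent senescence, a lasting exit from division. The comparisons here ask how RNA for the division machinery differed between the diets in each organ, and how its level differed among the organs on chow.

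Entry into mitosis is driven by cyclin-dependent kinase 1 bound to cyclins A2, B1 and B2. Polo-like and aurora kinases then help to build the spindle, and kinetochores tie each chromosome to it. The spindle checkpoint holds back the anaphase-promoting complex, a ubiquitin ligase, until all chromosomes are attached; its activator Cdc20 then starts exit, and the central spindle and contractile ring divide the cell. Most of these genes are transcribed late in the cell cycle under the MuvB complex with B-Myb and Foxm1, and are repressed in resting cells by the related DREAM complex. Cells of growing organs still divide in young mice, whereas most cells of an adult heart, kidney or liver rest. In bulk tissue, fewer dividing cells and less RNA per dividing cell cannot be told apart.

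Library totals ran from 16135276 to 23835383 estimated counts. Marker genes fitted the labelled organs: the summed level of 6 cardiomyocyte markers was 51940 to 68924 CPM (counts as a share of library size, with TMM scaling among the libraries of an organ) in heart and at most 7.85 CPM elsewhere, and 7 kidney tubule markers summed to 18835 to 23375 CPM in kidney. Ketogenic replicates 1 and 2 of heart, and likewise of liver, differed by little more than sampling noise, with a median chi-square over genes of 0.666 and 0.698 against 1.23 to 4.19 in the other 16 replicate pairs and 0.455 by chance. Each pair was counted as 1 sample, so heart and liver have 2 ketogenic samples against 3 on chow, and kidney has 3 against 3. Chow heart replicate 3 stands apart, with 5 atrial markers at 12133 CPM against 62.9 to 153 CPM in the other hearts and 5 adipocyte markers at 156 CPM against 0.492 to 1.83 CPM. It was also the lowest chow heart for 41 of the 42 members. The heart count over all members, and the member calls in heart that turn on it, are given with and without it. Heart counts and medians by role, the count of members without overlap and mean chow heart levels include it. In kidney, ketogenic replicate 1 was the lowest of its group for 33 members.

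RNA for the division machinery was lower on the ketogenic diet in all 3 organs. In liver 41 of the 42 members fell, with a median log2 fold change of -3.36 (10.3-fold lower), where 17.6% of all 13220 genes tested fell. In kidney 39 fell, with a median of -2.29 (4.91-fold lower), against 5.45% of 14526 genes. In heart 33 fell, with a median of -2.52 (5.74-fold lower), against 5.81% of 13609 genes. The median over all genes tested was -0.03 in heart, 0.00 in kidney and 0.01 in liver. A call is an adjusted p under 0.05 in edgeR's quasi-likelihood test, and a log2 fold change is ketogenic minus chow, given with its standard error after ±. No member rose in any organ by that test, where 6.25, 3.59 and 19.2% of all genes rose in heart, kidney and liver. None had an unadjusted p under 0.05 with a higher level, and DESeq2, another count test, called none higher and had 1 in heart at an unadjusted p under 0.05. Of the 42, 29 fell in all 3 organs and the other 13 in 2 of them.

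The heart count depends on which libraries are in the test. Without chow heart replicate 3, 40 members fell, with a median of -2.79, where 14.1% of all 13384 genes tested fell. Without chow replicate 1 the count was 12, and without chow replicate 2 it was 6. It was 0 of 42 when ketogenic replicate 3 or the near-identical pair was left out, which leaves 1 ketogenic sample, assumed to vary like the chow samples. In those tests 40 members each had a value below 0. In kidney the lowest count was 20, without chow replicate 1. Leaving out any liver library gave 40 to 42. Apart from the 14.1% above, the shares of all genes in these tests are not given, so those counts have no background beside them.

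**Figure D1:**
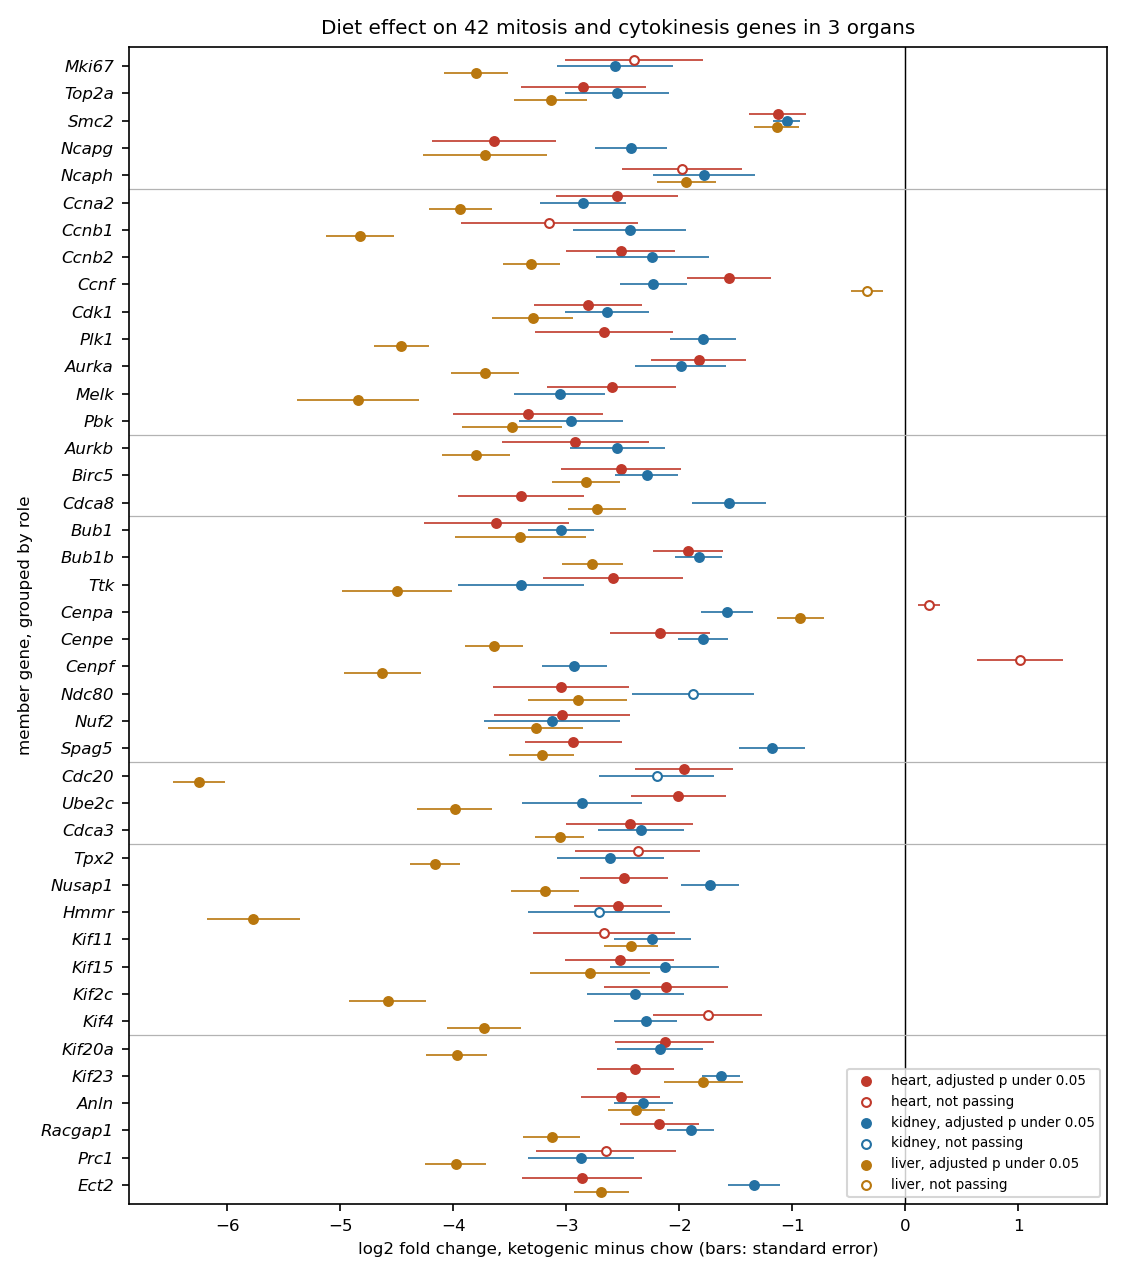
Each row is a member gene, and each point is its log2 fold change, ketogenic minus chow, with its standard error, in heart (red), kidney (blue) or liver (brown). Filled points passed an adjusted p of 0.05; all but the heart values of Cenpf (1.01) and Cenpa (0.21) lie left of 0, and Cdc20 in liver lies farthest left at -6.25.

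Every ketogenic sample lay below every chow sample for 42 of 42 members in kidney, where 16.4% of all genes tested show that pattern, and for 42 of 42 in liver, against 30.2%. In heart this held for 40 members, against 26.2%, and the exceptions were Cenpa and Cenpf. The summed level of the 42 members was 198, 207 and 124 CPM in ketogenic hearts against 417, 415 and 205 CPM in chow hearts. In kidney the sums were 62.6, 108 and 132 CPM against 519, 513 and 366 CPM. In liver they were 53.7, 61.9 and 46.7 CPM against 330, 455 and 366 CPM. Cenpf alone made up 57.1, 58.9 and 43.3% of the ketogenic heart sums, against 11.4, 11.4 and 16.4% on chow. Without that gene the heart sums were 85, 85.2 and 70.4 CPM against 369, 368 and 171 CPM.

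Markers of other cell types moved with the diet in places. Of 7 fibroblast markers 3 fell in heart and 3 in kidney, and their sum was 1298 to 1402 CPM in ketogenic hearts against 2144 to 3288 CPM on chow, and 405 to 545 CPM against 1041 to 1595 CPM in kidney. In liver 3 of the 7 fell and 2 rose, with sums of 200 to 231 CPM against 247 to 274 CPM. In heart 7 of 8 tested macrophage markers fell, with sums of 254 to 286 CPM against 395 to 472 CPM. The sum of 10 erythroid markers was 1019 to 1742 CPM against 2603 to 3650 CPM in heart, although none of the 7 tested was called lower and 1 was called higher. In liver 4 of 6 hepatocyte markers fell, with sums of 69162 to 74016 CPM against 111653 to 120603 CPM. In kidney 5 adipocyte markers summed to 264, 18 and 242 CPM on the ketogenic diet against 4.86, 81.9 and 61 CPM on chow. In liver they summed to 85.7 to 147 CPM against 0.503 to 0.726 CPM, with Adipoq, Plin1 and Lep at 3 counts or fewer. None of the fibroblast, macrophage, erythroid and hepatocyte lists had a marker at 3 counts or fewer in every library of the organ named. Single libraries could be that low, and in heart 8 of 9 macrophage and 7 of 10 erythroid markers had enough counts to be tested. Of 8 endothelial markers none was called in heart, 1 fell in kidney and 2 fell in liver. Their sums were 1393 to 1676 CPM against 1421 to 1728 CPM in heart, 786 to 834 CPM against 839 to 930 CPM in kidney and 334 to 342 CPM against 350 to 366 CPM in liver. The heart test without chow heart replicate 3 called 5 of 7 tested fibroblast markers and 8 of 8 macrophage markers lower. It called 2 of 8 endothelial and 2 of 7 erythroid markers lower, and 1 erythroid and 1 of 6 cardiomyocyte markers higher. In that test 14.1% of all genes fell and 13.8% rose. The part of cell makeup in the lower member levels was not tested.

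**Figure D2:**
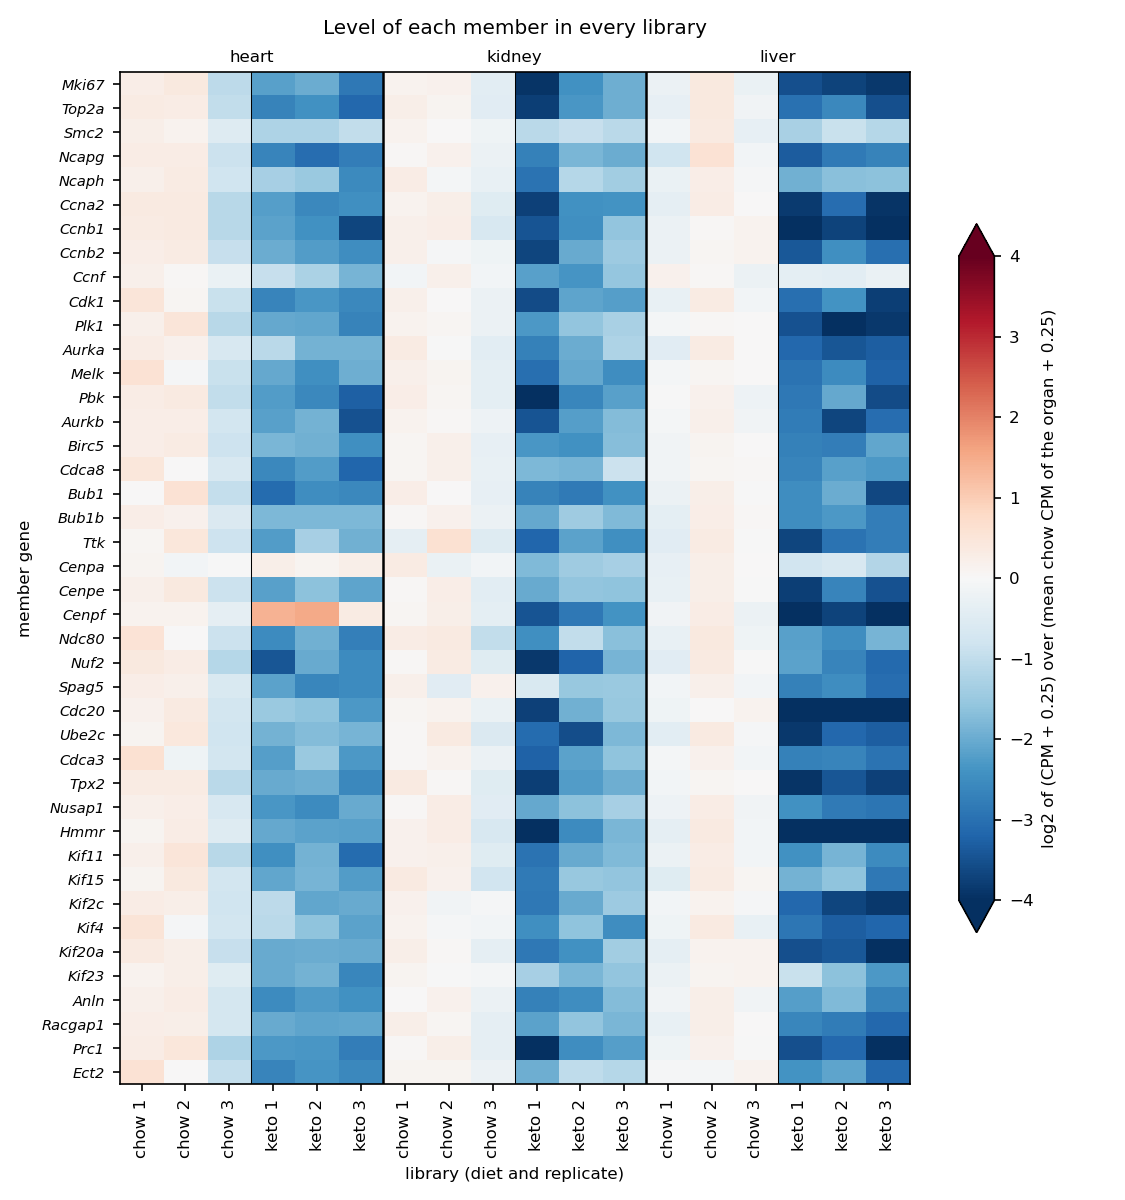
Rows are the 42 members and columns the 18 libraries by organ, diet and replicate; colour is log2 of CPM plus 0.25 over the mean chow CPM of that organ plus 0.25, with blue below chow and red above, and the scale stops at 4 in both directions. The ketogenic columns are blue to near white except Cenpf and Cenpa in heart, Ccnf in liver is close to white, and chow heart 3 is light blue where the other chow hearts are near white or pale red.

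Because so many members moved together, the sequence before their start sites was searched for letters that late cell-cycle genes are known for. RefSeq start sites on build GRCm38.p6 were found for 37 of the 42 members in 39 windows; Kif20a, Pbk, Tpx2, Ccna2 and Aurkb had no entry. In the 250 bases before the start, on both strands, CCAAT was found in 76.9% of member windows and in 33.8% of all 32851 windows of the same length, and more than once in 48.7% against 10.1%. TTTGAA or TTCGAA, letters of the cell-cycle genes homology region (CHR) that MuvB complexes bind, were found in 41% against 17.1%, and together with CCAAT in 35.9% against 6.02%. TTGGCGC, an E2F-type motif whose reverse strand can share letters with CCAAT, was found in 12.8% against 1.97%. TTCCCGC, another E2F-type motif, was in none of the member windows and in 3.82% of all windows. These matches describe letters only.

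Stretches of 150 bases are printed for 6 members to show the motifs side by side. Mki67 and Top2a are common markers of division, Ccnb2 encodes cyclin B2, Cdc20 and Hmmr had the most negative values in liver, and Cenpf did not fall in heart. Each stretch is on the minus strand of GRCm38.p6, reads 5′ to 3′ toward the gene, and ends before the start site of both RefSeq and GENCODE. Capitals mark the motifs on either strand, and a motif on the other strand appears as its reverse complement, as CCAAT does in the stretch of Hmmr. The positions are chr7:135716380-135716529 for Mki67, chr11:99024190-99024339 for Top2a, chr9:70421555-70421704 for Ccnb2, chr4:118437353-118437502 for Cdc20, chr11:40733438-40733587 for Hmmr and chr1:189688087-189688236 for Cenpf.
Mki67: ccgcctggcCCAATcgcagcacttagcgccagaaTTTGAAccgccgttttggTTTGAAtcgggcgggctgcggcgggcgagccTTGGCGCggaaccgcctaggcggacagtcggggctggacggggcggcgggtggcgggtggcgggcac
Top2a: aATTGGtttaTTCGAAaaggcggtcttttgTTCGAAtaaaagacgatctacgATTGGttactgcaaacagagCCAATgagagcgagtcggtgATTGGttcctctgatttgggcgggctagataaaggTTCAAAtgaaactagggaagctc
Ccnb2: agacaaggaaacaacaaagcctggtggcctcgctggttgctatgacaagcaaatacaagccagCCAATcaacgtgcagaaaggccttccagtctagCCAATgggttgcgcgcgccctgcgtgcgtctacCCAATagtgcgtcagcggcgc
Cdc20: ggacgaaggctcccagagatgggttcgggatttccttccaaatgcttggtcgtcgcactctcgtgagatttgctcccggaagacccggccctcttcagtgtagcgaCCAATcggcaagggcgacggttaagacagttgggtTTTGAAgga
Hmmr: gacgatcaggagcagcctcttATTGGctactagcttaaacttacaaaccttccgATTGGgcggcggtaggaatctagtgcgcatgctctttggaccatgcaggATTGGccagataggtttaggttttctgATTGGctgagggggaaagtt
Cenpf: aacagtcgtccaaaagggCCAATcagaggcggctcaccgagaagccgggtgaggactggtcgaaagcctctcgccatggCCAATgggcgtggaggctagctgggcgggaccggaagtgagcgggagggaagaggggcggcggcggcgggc

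Among the printed stretches those of Mki67, Top2a and Cdc20 hold both CCAAT and CHR letters. Those of Ccnb2, Hmmr and Cenpf hold CCAAT alone, repeated in each. Ccnb2 has CHR letters farther from its start site, at position -167 of the searched window. It is therefore counted below among the members with CHR letters, whereas Hmmr and Cenpf are not. The stretch of Mki67 also holds TTGGCGC. The diet effects of members with and without these letters were set side by side, with no test. The 28 members with CCAAT had median log2 fold changes of -2.48, -2.24 and -3.36 in heart, kidney and liver, and the 9 without it had -2.52, -2.29 and -2.90. The 15 members with CHR letters had medians of -2.52, -2.24 and -3.30, and the 22 without them had -2.52, -2.14 and -3.25.

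Of the 5 chromosome structure genes, 3 fell in heart and 5 each in kidney and liver, with medians of -2.40, -2.43 and -3.14. Mki67 encodes Ki-67, which coats mitotic chromosomes and is a common marker of dividing cells, and lies at chr7:142881471-142908062 on the minus strand of mm9, the build of the files. In heart, Mki67 was at 10.6, 11.9 and 6.51 CPM on the ketogenic diet against 58.1, 63.5 and 23.3 CPM on chow. In kidney it was at 4.5, 13.2 and 18.3 CPM on the ketogenic diet against 79.3, 81.6 and 54 CPM on chow. In liver it was at 4.24, 3.68 and 3.29 CPM on the ketogenic diet against 43.9, 67.6 and 42.5 CPM on chow. No ketogenic library reached a chow library in any organ, and chow heart 3 was well below the other chow hearts. The log2 fold changes of Mki67 were -2.40 ± 0.61 (adjusted p = 0.0909) in heart, -2.57 ± 0.51 (adjusted p = 0.0478) in kidney and -3.80 ± 0.28 (adjusted p = 0.000155) in liver, so it did not pass in heart. Without chow heart replicate 3 its heart value was -2.70 with an adjusted p of 0.000299, and over all alternatives that p ran from 0.000243 to 0.371.

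Top2a encodes topoisomerase II alpha, which untangles sister chromatids (mm9 chr11:98854261-98885503). Its heart levels were 4.11, 5.01 and 2.93 CPM on the ketogenic diet against 35.1, 34.5 and 13.9 CPM on chow. Its kidney levels were 2.46, 7.13 and 9.27 CPM on the ketogenic diet against 43.5, 40.3 and 27 CPM on chow. Its liver levels were 2.59, 3.53 and 1.73 CPM on the ketogenic diet against 17.8, 29.1 and 20 CPM on chow. The diets did not overlap in any organ, and ketogenic kidney 1 was the lowest kidney. Top2a fell in all 3 organs, at -2.85 ± 0.55 (adjusted p = 0.0433) in heart, -2.55 ± 0.46 (adjusted p = 0.033) in kidney and -3.14 ± 0.32 (adjusted p = 0.000731) in liver. Ncapg encodes a subunit of condensin, the ring that compacts mitotic chromosomes. In heart, Ncapg was at 0.316, 0.177 and 0.26 CPM on the ketogenic diet against 4.04, 4.04 and 1.67 CPM on chow, the ketogenic values resting on 6, 3 and 4 reads. In kidney Ncapg was at 0.42, 0.981 and 0.852 CPM on the ketogenic diet against 4.24, 4.6 and 3.41 CPM on chow. In liver Ncapg was at 0.15, 0.316 and 0.377 CPM on the ketogenic diet against 2.09, 5.75 and 3.52 CPM on chow. The groups were again apart, and ketogenic livers held 3 to 7 reads each. Ncapg fell at -3.64 ± 0.55 (adjusted p = 0.0102) in heart, -2.43 ± 0.32 (adjusted p = 0.00312) in kidney and -3.72 ± 0.55 (adjusted p = 0.00121) in liver, and its heart value was the most negative among the members there.

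Smc2, the core condensin subunit that also works outside mitosis, fell least within this role. Its log2 fold changes were -1.13 ± 0.25 (adjusted p = 0.0343) in heart, -1.05 ± 0.12 (adjusted p = 0.00229) in kidney and -1.14 ± 0.20 (adjusted p = 0.00166) in liver. In kidney Smc2 was at 7.93, 8.89 and 7.89 CPM on the ketogenic diet against 18.8, 17.3 and 15.1 CPM on chow, and that -1.05 was the smallest fall in the organ. Ncaph, another condensin subunit, was at -1.98 ± 0.53 (adjusted p = 0.0609) in heart, where it did not pass, and fell at -1.78 ± 0.45 in kidney and -1.94 ± 0.26 in liver.

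Among 9 cyclins and mitotic kinases, 8 fell in heart, 9 in kidney and 8 in liver, with medians of -2.60, -2.44 and -3.72. Ccnb1 encodes cyclin B1, the main partner of Cdk1 at mitotic entry (mm9 chr13:101548694-101556441). Heart levels of Ccnb1 were 0.843, 0.649 and 0.13 CPM on the ketogenic diet against 5.84, 5.94 and 2 CPM on chow. Kidney levels of Ccnb1 were 0.601, 1.44 and 2.82 CPM on the ketogenic diet against 10.4, 10.9 and 5.63 CPM on chow. Liver levels of Ccnb1 were 0.349, 0.526 and 0.162 CPM on the ketogenic diet against 8.3, 10.2 and 10.8 CPM on chow. The ketogenic libraries were lower throughout, with only 2 reads in ketogenic heart 3 and 3 to 10 reads per ketogenic liver. Ccnb1 gave -3.15 ± 0.78 (adjusted p = 0.0565) in heart, -2.44 ± 0.50 (adjusted p = 0.0303) in kidney and -4.83 ± 0.30 (adjusted p = 2.61e-06) in liver, and the heart value missed the threshold. Without chow heart replicate 3 it was -3.43 with an adjusted p of 2.74e-05, and over the alternatives that p ran from 2.74e-05 to 0.231.

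Ccna2 encodes cyclin A2, which acts in S phase and at mitotic entry. Ccna2 in heart was at 2.16, 1.59 and 1.76 CPM on the ketogenic diet against 13.9, 13.8 and 4.86 CPM on chow. Ccna2 in kidney was at 0.961, 2.75 and 2.88 CPM on the ketogenic diet against 17.5, 18.9 and 11.4 CPM on chow. Ccna2 in liver was at 0.598, 1.21 and 0.539 CPM on the ketogenic diet against 9.21, 14.4 and 11.8 CPM on chow. Chow values were higher in each organ without overlap, and the gene fell at -2.55 ± 0.54 (adjusted p = 0.042) in heart, -2.85 ± 0.38 (adjusted p = 0.00639) in kidney and -3.94 ± 0.28 (adjusted p = 5.91e-06) in liver. Its exons share 378 bases with Exosc9 on the opposite strand, and reads were counted by strand. Cdk1 is the kinase that starts mitosis. For Cdk1 the hearts gave 0.79, 1.06 and 0.846 CPM on the ketogenic diet against 8.96, 6.67 and 3.27 CPM on chow. For Cdk1 the kidneys gave 0.661, 2.29 and 2.13 CPM on the ketogenic diet against 12.3, 10.6 and 8.93 CPM on chow. For Cdk1 the livers gave 0.897, 1.53 and 0.431 CPM on the ketogenic diet against 7.35, 11.4 and 8.26 CPM on chow. The diets did not overlap, and Cdk1 fell at -2.81 ± 0.48 (adjusted p = 0.0177) in heart, -2.64 ± 0.37 (adjusted p = 0.0059) in kidney and -3.30 ± 0.36 (adjusted p = 0.000246) in liver.

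Plk1, polo-like kinase 1, acts from spindle assembly to cytokinesis. Hearts had Plk1 at 0.737, 0.708 and 0.39 CPM on the ketogenic diet against 4.42, 5.38 and 1.63 CPM on chow. Kidneys had Plk1 at 1.02, 1.83 and 2.29 CPM on the ketogenic diet against 6.66, 6.26 and 5.03 CPM on chow. Livers had Plk1 at 0.499, 0.263 and 0.324 CPM on the ketogenic diet against 7.71, 8.43 and 8.12 CPM on chow. The fall was deepest in liver, where chow libraries lay close together at 7.71 to 8.43 CPM and ketogenic libraries at 0.263 to 0.499 CPM. Plk1 fell at -2.67 ± 0.61 (adjusted p = 0.0391) in heart, -1.79 ± 0.29 (adjusted p = 0.00695) in kidney and -4.46 ± 0.24 (adjusted p = 1.17e-06) in liver. Of the other kinases, Aurka, which matures spindle poles, fell at -1.83 ± 0.42, -1.99 ± 0.40 and -3.72 ± 0.30 in heart, kidney and liver, and Melk at -2.60 ± 0.57, -3.06 ± 0.40 and -4.84 ± 0.54. The liver value of Melk rests on 1, 3 and 0 reads, and a count of 0 in that library allows up to 0.162 CPM. Pbk fell at -3.34 ± 0.66, -2.96 ± 0.46 and -3.48 ± 0.44, and Ccnb2, cyclin B2, at -2.52 ± 0.48, -2.24 ± 0.50 and -3.31 ± 0.25.

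Ccnf was the only member that did not pass in liver. It encodes cyclin F, the substrate receptor of an SCF ubiquitin ligase that also acts on DNA repair and centrosomes (mm9 chr17:24360177-24388354). In liver, Ccnf was at 13.5, 13.1 and 14.7 CPM on the ketogenic diet against 19.9, 18.1 and 15 CPM on chow. These values are close, with ketogenic liver 3 at 14.7 CPM and chow liver 3 at 15 CPM. In heart, Ccnf was at 1.47, 1.12 and 0.651 CPM on the ketogenic diet against 3.5, 3.14 and 2.49 CPM on chow, and in kidney the ketogenic values were 0.781, 0.654 and 1.33 CPM against 4.07, 5.1 and 4.06 CPM. There the groups were far apart. The log2 fold changes of Ccnf were -1.56 ± 0.37 (adjusted p = 0.0372) in heart, -2.23 ± 0.30 (adjusted p = 0.00325) in kidney and -0.34 ± 0.14 (adjusted p = 0.0748) in liver. Its liver adjusted p ran from 0.025 to 0.339 over the alternatives, with log2 values from -0.44 to -0.24.

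All 3 chromosomal passenger genes fell in all 3 organs, with medians of -2.92, -2.29 and -2.83. This complex corrects faulty attachments of chromosomes and later helps to cut the cell in 2. Aurkb is its kinase (mm9 chr11:68859145-68865164). In heart, Aurkb was at 0.685, 0.884 and 0.13 CPM on the ketogenic diet against 4.81, 4.88 and 2.33 CPM on chow. In kidney, Aurkb was at 0.3, 1.05 and 1.55 CPM on the ketogenic diet against 6.38, 5.98 and 4.92 CPM on chow. In liver, Aurkb was at 0.499, 0.158 and 0.377 CPM on the ketogenic diet against 4.63, 5.75 and 4.42 CPM on chow. Ketogenic heart 3 held only 2 reads, and no ketogenic value reached a chow value. Aurkb fell at -2.92 ± 0.65 (adjusted p = 0.0379) in heart, -2.55 ± 0.42 (adjusted p = 0.00943) in kidney and -3.80 ± 0.30 (adjusted p = 7.09e-06) in liver. Birc5 encodes survivin, which places the complex on the inner centromere. Birc5 in heart was 0.632, 0.59 and 0.325 CPM on the ketogenic diet against 3.5, 3.7 and 1.51 CPM on chow. Birc5 in kidney was 1.08, 0.981 and 1.81 CPM on the ketogenic diet against 6.72, 7.42 and 5.09 CPM on chow. Birc5 in liver was 0.499, 0.474 and 0.917 CPM on the ketogenic diet against 4.22, 5.07 and 4.65 CPM on chow. The spread among chow livers was narrow, from 4.22 to 5.07 CPM, and Birc5 fell at -2.52 ± 0.53 (adjusted p = 0.0264) in heart, -2.29 ± 0.28 (adjusted p = 0.00238) in kidney and -2.83 ± 0.30 (adjusted p = 4.76e-05) in liver. Cdca8, or borealin, fell at -3.40 ± 0.56, -1.56 ± 0.33 and -2.73 ± 0.26.

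Of 9 kinetochore and spindle checkpoint genes, 7 fell in heart, 8 in kidney and 9 in liver, with medians of -2.59, -1.88 and -3.27. Cenpf encodes a large late-cycle protein of the outer kinetochore that also binds microtubules and, outside mitosis, sits at the nuclear envelope and mitochondria (mm9 chr1:191464493-191511965). In heart, Cenpf was at 113, 122 and 53.8 CPM on the ketogenic diet against 47.5, 47.4 and 33.5 CPM on chow. All 3 ketogenic hearts were above all 3 chow hearts, the reverse of every other member except Cenpa, and ketogenic heart 3 was less than the near-identical pair. In kidney, Cenpf was at 1.74, 2.75 and 3.89 CPM on the ketogenic diet against 22.8, 25.4 and 16.3 CPM on chow. In liver, Cenpf was at 0.648, 0.947 and 0.27 CPM on the ketogenic diet against 13.7, 18.9 and 12.9 CPM on chow. In both of these organs the ketogenic libraries were the low ones, without overlap. The log2 fold changes of Cenpf were 1.01 ± 0.38 (adjusted p = 0.172) in heart, -2.93 ± 0.29 (adjusted p = 0.00212) in kidney and -4.63 ± 0.34 (adjusted p = 3.28e-05) in liver, so the higher heart level did not pass.

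That heart value of Cenpf ran from 0.34 to 1.46 over the alternatives and its adjusted p from 0.00337 to 0.504. It passed under 1 alternative, the fit with the replicate number as a block and the near-identical libraries kept apart. Cenpa encodes the histone H3 variant that marks centromeres in dividing and resting cells alike (mm9 chr5:30969275-30977199). In heart, Cenpa was at 25.5, 23.3 and 25.8 CPM on the ketogenic diet against 23.6, 20.2 and 21.4 CPM on chow. The diets almost met, with ketogenic heart 2 at 23.3 CPM and chow heart 1 at 23.6 CPM, and the samples were apart once the near-identical pair was averaged. In kidney, Cenpa was at 1.86, 2.42 and 2.61 CPM on the ketogenic diet against 8.64, 5.65 and 6.38 CPM on chow, and in liver the ketogenic values were 4.79, 5.26 and 3.61 CPM against 6.67, 9.94 and 8.48 CPM. Both organs were lower on the ketogenic diet without overlap, and Cenpa gave 0.21 ± 0.10 (adjusted p = 0.222) in heart, -1.58 ± 0.23 (adjusted p = 0.00473) in kidney and -0.93 ± 0.21 (adjusted p = 0.00599) in liver.

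**Figure D3:**
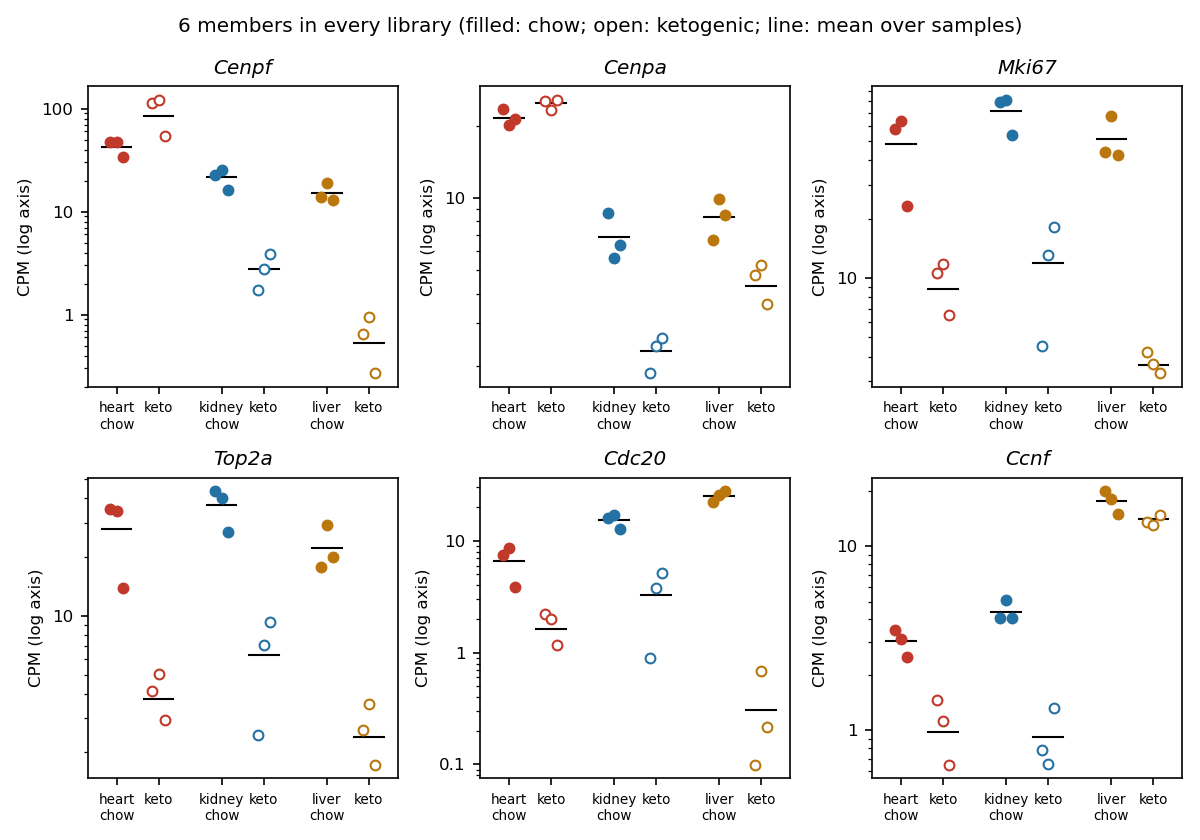
Each panel gives the CPM of a member on a log axis in every library, filled for chow and open for ketogenic, with a line at the mean over samples. The ketogenic means of Cenpf and Cenpa stand above the chow means in heart but below them in kidney and liver, Mki67, Top2a and Cdc20 are lower on the ketogenic diet in all 3 organs, and Ccnf in liver lies between 13.1 and 19.9 CPM on both diets.

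Bub1 encodes a checkpoint kinase that gathers other checkpoint proteins on unattached kinetochores. Levels of Bub1 in heart were 0.105, 0.295 and 0.26 CPM on the ketogenic diet against 2.79, 4.26 and 1.31 CPM on chow. Levels of Bub1 in kidney were 0.541, 0.458 and 0.693 CPM on the ketogenic diet against 5.76, 4.76 and 3.73 CPM on chow. Levels of Bub1 in liver were 0.299, 0.526 and 0 CPM on the ketogenic diet against 2.36, 3.36 and 2.84 CPM on chow. The ketogenic levels rest on 0 to 13 reads per library, a count of 0 in ketogenic liver 3 allowing up to 0.162 CPM, and none reached a chow level. Bub1 fell at -3.62 ± 0.64 (adjusted p = 0.0165) in heart, -3.05 ± 0.29 (adjusted p = 0.00126) in kidney and -3.41 ± 0.58 (adjusted p = 0.0022) in liver. Ndc80 encodes a core subunit of the complex that grips microtubules. Ndc80 in heart gave 0.263, 0.531 and 0.195 CPM on the ketogenic diet against 3.99, 2.69 and 1.35 CPM on chow. Ndc80 in kidney gave 0.3, 1.24 and 0.693 CPM on the ketogenic diet against 3.39, 3.54 and 1.24 CPM on chow. Ndc80 in liver gave 0.249, 0.158 and 0.377 CPM on the ketogenic diet against 1.59, 2.73 and 1.76 CPM on chow. The groups were apart in heart and liver, while in kidney ketogenic replicate 2 and chow replicate 3 both round to 1.24 CPM. The log2 fold changes of Ndc80 were -3.05 ± 0.60 (adjusted p = 0.0226) in heart, -1.88 ± 0.54 (adjusted p = 0.0693) in kidney and -2.90 ± 0.44 (adjusted p = 0.000468) in liver, and kidney did not pass, with an adjusted p of 0.0126 to 0.226 over the alternatives.

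Its partner Nuf2 fell at -3.04 ± 0.60, -3.13 ± 0.60 and -3.27 ± 0.42 in heart, kidney and liver. The checkpoint kinase Ttk, or Mps1, fell at -2.59 ± 0.62, -3.40 ± 0.56 and -4.50 ± 0.49, and its kidney value was the most negative there. Ketogenic liver 1 had a count of 0 for Ttk, which allows up to 0.15 CPM. In kidney, Ttk was at 0.0601, 0.392 and 0.266 CPM on the ketogenic diet against 1.92, 4.04 and 1.73 CPM on chow, the ketogenic values resting on 1, 6 and 5 reads. In kidney, Nuf2 was at 0.12, 0.327 and 1.23 CPM on the ketogenic diet against 5.31, 6.48 and 3.57 CPM on chow, and its value was the next lowest there. Neither gene overlapped between the diets, and chow kidney 3 was the lowest chow library for both. Bub1b, which encodes the checkpoint protein BubR1, fell at -1.92 ± 0.31, -1.83 ± 0.21 and -2.77 ± 0.27. The kinetochore motor Cenpe fell at -2.17 ± 0.44, -1.79 ± 0.22 and -3.64 ± 0.26. Spag5, or astrin, fell at -2.94 ± 0.43 in heart and -3.22 ± 0.29 in liver but gave -1.18 ± 0.29 in kidney. Its ketogenic kidneys were at 7.15, 3.73 and 3.84 CPM against 12.9, 8.03 and 12.4 CPM on chow, and ketogenic kidney 1, low for most members, was the highest of its group for this gene.

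The 3 genes of ubiquitin-driven exit all fell in heart and liver and 2 of them in kidney, with medians of -2.01, -2.34 and -3.99. Cdc20 activates the anaphase-promoting complex (mm9 chr4:118105506-118109948). Livers on the ketogenic diet had Cdc20 at 0.0997, 0.684 and 0.216 CPM, which is 2, 13 and 4 reads, against 22.3, 25.6 and 27.8 CPM on chow. The log2 fold change of -6.25 ± 0.23 (adjusted p = 5.52e-08) was the most negative of all members in any organ. Kidneys had Cdc20 at 0.901, 3.79 and 5.11 CPM on the ketogenic diet against 16, 16.9 and 12.7 CPM on chow. Hearts had Cdc20 at 2.21, 2 and 1.17 CPM on the ketogenic diet against 7.48, 8.63 and 3.88 CPM on chow. Ketogenic values were below chow values in both, at -1.96 ± 0.43 (adjusted p = 0.0362) in heart, where it fell, and -2.20 ± 0.51 (adjusted p = 0.0539) in kidney, where it did not pass. Without ketogenic kidney replicate 1 the kidney value was -1.76 with an adjusted p of 4.54e-05, and over the alternatives that p ran from 4.54e-05 to 0.167.

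Ube2c encodes the ubiquitin-conjugating enzyme that works with this ligase. Ube2c in heart stood at 1.21, 1.36 and 1.24 CPM on the ketogenic diet against 5.57, 7.01 and 2.82 CPM on chow. Ube2c in kidney stood at 0.541, 0.327 and 1.7 CPM on the ketogenic diet against 6.72, 8.47 and 4.27 CPM on chow. Ube2c in liver stood at 0.249, 0.579 and 0.485 CPM on the ketogenic diet against 5.22, 9.1 and 6.77 CPM on chow. There was no overlap, and Ube2c fell at -2.01 ± 0.42 (adjusted p = 0.0271) in heart, -2.86 ± 0.53 (adjusted p = 0.0191) in kidney and -3.99 ± 0.33 (adjusted p = 1.13e-05) in liver. Cdca3, which promotes entry into mitosis, fell at -2.44 ± 0.56, -2.34 ± 0.38 and -3.06 ± 0.22. By comparison, 13 other subunits and activators of the anaphase-promoting complex were listed as constant, with earlier results of these data known. Their log2 fold changes ran from -0.31 to 0.15 in heart and from -0.31 to 0.13 in kidney. In liver they ran from -0.40 to 0.84, where 2 fell and 3 rose, against 17.6 and 19.2% of all genes.

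Of 7 spindle motors and microtubule proteins, 4 fell in heart, 6 in kidney and 7 in liver, with medians of -2.49, -2.30 and -3.73. Kif11 encodes Eg5, the motor that pushes spindle poles apart. Kif11 was at 1.47, 2.24 and 0.846 CPM on the ketogenic diet against 10.4, 12.8 and 4.08 CPM on chow in heart. Kif11 was at 1.44, 3.01 and 3.62 CPM on the ketogenic diet against 14.6, 14.7 and 8.98 CPM on chow in kidney. Kif11 was at 1.4, 2.16 and 1.29 CPM on the ketogenic diet against 7.12, 10.5 and 7.9 CPM on chow in liver. The ketogenic libraries were lower without overlap, and the gene gave -2.67 ± 0.63 (adjusted p = 0.0576) in heart, -2.24 ± 0.34 (adjusted p = 0.0084) in kidney and -2.43 ± 0.24 (adjusted p = 3.09e-05) in liver. In heart it did not pass, but without chow heart replicate 3 it was at -2.96 with an adjusted p of 2.74e-06, and over the alternatives that p ran from 2.74e-06 to 0.286. Hmmr encodes a protein that steers spindle assembly and binds hyaluronan. In liver, Hmmr was at 0.249, 0.211 and 0.0539 CPM on the ketogenic diet against 7.48, 12.3 and 8.98 CPM on chow. In kidney, Hmmr was at 0.3, 1.64 and 2.82 CPM on the ketogenic diet against 12, 13.1 and 6.65 CPM on chow. In heart, Hmmr was at 0.579, 0.531 and 0.52 CPM on the ketogenic diet against 3.44, 3.98 and 2.16 CPM on chow. Ketogenic livers held 5, 4 and 1 reads, and in kidney the ketogenic values ran over a wide range. Hmmr gave -2.54 ± 0.39 (adjusted p = 0.0108) in heart, -2.71 ± 0.63 (adjusted p = 0.0528) in kidney and -5.77 ± 0.41 (adjusted p = 9.53e-06) in liver, the second most negative member in liver and one of 3 that did not pass in kidney.

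Nusap1 bundles spindle microtubules near chromosomes. Hearts gave Nusap1 at 0.895, 0.766 and 1.17 CPM on the ketogenic diet against 6.44, 6.73 and 3.43 CPM on chow. Kidneys gave Nusap1 at 1.92, 2.62 and 3.36 CPM on the ketogenic diet against 9.03, 10.9 and 6.38 CPM on chow. Livers gave Nusap1 at 0.698, 0.474 and 0.431 CPM on the ketogenic diet against 4.17, 6.08 and 4.38 CPM on chow. The chow libraries were higher throughout and Nusap1 fell at -2.49 ± 0.39 (adjusted p = 0.0109) in heart, -1.73 ± 0.26 (adjusted p = 0.00575) in kidney and -3.19 ± 0.30 (adjusted p = 2.34e-05) in liver. It shares 208 exon bases with Oip5 on the opposite strand. Tpx2, which nucleates spindle microtubules, gave -2.37 ± 0.55 (adjusted p = 0.0504) in heart, just short of the threshold, and fell at -2.61 ± 0.47 in kidney and -4.16 ± 0.22 in liver. Kif4, a chromosome-bound motor, gave -1.75 ± 0.48 (adjusted p = 0.0625) in heart and fell at -2.30 ± 0.28 and -3.73 ± 0.33 in kidney and liver. Kif15 and Kif2c fell in all 3 organs, at -2.53 ± 0.48, -2.13 ± 0.48 and -2.79 ± 0.53 for Kif15 and at -2.12 ± 0.55, -2.39 ± 0.43 and -4.58 ± 0.34 for Kif2c in heart, kidney and liver.

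Of 6 cytokinesis genes, 5 fell in heart and 6 each in kidney and liver, with medians of -2.46, -2.04 and -2.91. Anln encodes anillin, the scaffold of the contractile ring (mm9 chr9:22135658-22193650). In heart, Anln was at 2.16, 2.59 and 2.28 CPM on the ketogenic diet against 15.6, 16.5 and 8.12 CPM on chow. In kidney, Anln was at 1.98, 2.35 and 4.16 CPM on the ketogenic diet against 14.4, 16.3 and 12.2 CPM on chow. In liver, Anln was at 1.5, 2.11 and 1.02 CPM on the ketogenic diet against 7.03, 9.27 and 6.99 CPM on chow. The groups were apart in every organ, and Anln fell at -2.52 ± 0.35 (adjusted p = 0.0113) in heart, -2.32 ± 0.26 (adjusted p = 0.00234) in kidney and -2.38 ± 0.25 (adjusted p = 5.29e-05) in liver. Racgap1 belongs to centralspindlin, which marks the division plane. Racgap1 in heart came to 2.11, 1.95 and 2.02 CPM on the ketogenic diet against 11.2, 10.9 and 5.59 CPM on chow. Racgap1 in kidney came to 2.58, 3.92 and 3.25 CPM on the ketogenic diet against 14.3, 12.7 and 9.36 CPM on chow. Racgap1 in liver came to 1.2, 1 and 0.755 CPM on the ketogenic diet against 6.94, 10.1 and 8.57 CPM on chow. Ketogenic hearts lay between 1.95 and 2.11 CPM, and Racgap1 fell at -2.18 ± 0.35 (adjusted p = 0.0132) in heart, -1.90 ± 0.21 (adjusted p = 0.0021) in kidney and -3.13 ± 0.25 (adjusted p = 9.11e-06) in liver.

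Kif20a is the motor that brings the passenger complex to the central spindle. For Kif20a the hearts gave 1.84, 1.89 and 1.82 CPM on the ketogenic diet against 10.6, 9.59 and 4.16 CPM on chow. For Kif20a the kidneys gave 1.5, 2.09 and 4.58 CPM on the ketogenic diet against 14.7, 12.9 and 9.68 CPM on chow. For Kif20a the livers gave 1.15, 1.26 and 0.647 CPM on the ketogenic diet against 12.3, 17.4 and 17.4 CPM on chow. The diets did not overlap, and Kif20a fell at -2.13 ± 0.44 (adjusted p = 0.0335) in heart, -2.17 ± 0.38 (adjusted p = 0.0175) in kidney and -3.97 ± 0.27 (adjusted p = 7.73e-06) in liver. Its exons share 1115 bases with Cdc23 and 187 with Brd8 on the opposite strand, and reads were counted by strand. Kif23, the motor of centralspindlin, fell at -2.39 ± 0.34, -1.63 ± 0.17 and -1.79 ± 0.35. Prc1, which bundles the central spindle, gave -2.65 ± 0.62 (adjusted p = 0.0565) in heart and fell at -2.87 ± 0.47 and -3.98 ± 0.27 in kidney and liver. Ect2, which acts at the division plane, fell at -2.86 ± 0.53, -1.34 ± 0.23 and -2.69 ± 0.24.

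Leaving out chow heart replicate 3 brought Ncaph, Tpx2, Kif4 and Prc1 past the threshold in heart too, at -2.20, -2.68, -1.97 and -2.99 on the log2 scale, with adjusted p-values of 0.000208, 5.37e-07, 0.000392 and 7.63e-08. Over the alternatives those of Ncaph ran from 0.000208 to 0.273, of Tpx2 from 5.37e-07 to 0.291, of Kif4 from 0.000392 to 0.319 and of Prc1 from 7.63e-08 to 0.311. Cenpf and Cenpa then were the members that did not pass in heart, at 0.88 (adjusted p = 0.382) and 0.20 (adjusted p = 0.208), and the adjusted p of Cenpa ran from 0.148 to 0.67 over the alternatives.

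With all libraries in edgeR's test, the depth of the fall differed among the organs for a minority of members. Between heart and kidney 2 members differed in diet effect, where 2.5% of 15695 genes did. These were Cenpf, with a difference of 3.95 ± 0.50 (heart minus kidney, adjusted p = 0.00207), and Cenpa, with 1.80 ± 0.28 (adjusted p = 0.00431). Between heart and liver 8 differed, against 23.5% of all genes, a share of members below that background. The differences of heart minus liver were 5.68 ± 0.62 for Cenpf, 4.38 ± 0.85 for Cdc20, 3.30 ± 1.07 for Hmmr, 2.53 ± 0.77 for Kif2c, 2.04 ± 0.62 for Kif4, 1.95 ± 0.66 for Aurka, 1.18 ± 0.28 for Cenpa and -1.13 ± 0.36 for Ccnf. Between kidney and liver 8 differed, against 21.8%. The differences of kidney minus liver were 4.08 ± 0.79 for Cdc20, 3.10 ± 0.94 for Hmmr, 2.70 ± 0.62 for Plk1, 2.23 ± 0.73 for Kif2c, 2.07 ± 0.50 for Spag5, 1.88 ± 0.49 for Cenpe, 1.49 ± 0.50 for Nusap1 and -1.86 ± 0.34 for Ccnf.

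In both comparisons with liver the members called had higher log2 fold changes outside the liver, except Ccnf. In heart, Cenpf and Cenpa stood above chow, at 1.01 and 0.21, and neither passed there. The most negative value was in liver for 32 of the 42, in heart for 8 and in kidney for 2. The median difference over the 42 was 0.87 for heart minus liver, 1.15 for kidney minus liver and -0.16 for heart minus kidney. Across the 42 genes, which are not independent replicates, the rank correlation of log2 fold changes was 0.60 between kidney and liver, 0.26 between heart and kidney and 0.08 between heart and liver. Without chow heart replicate 3 and ketogenic kidney replicate 1, 23 of the 42 differed between kidney and liver and 6 between heart and kidney. DESeq2 called 13 between heart and liver and 14 between kidney and liver. The shares of all genes under these and the following settings are not given, so the counts have no background beside them. Leaving out 1 library gave 3 to 9 for heart and liver: 3 without ketogenic liver replicate 3, 4 without chow liver replicate 2, and 5 without ketogenic heart replicate 1, ketogenic heart replicate 3 or chow liver replicate 3. For kidney and liver it gave 4 to 15: 4 without ketogenic liver replicate 3, 5 without ketogenic kidney replicate 2 or 3, chow kidney replicate 3 or chow liver replicate 2, and 15 without ketogenic kidney replicate 1. For heart and kidney it gave 2 to 4, the highest without chow heart replicate 3.

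Levels on chow were compared per 1000 bases of exon and on CPM with TMM scaling over all 18 libraries, so that genes and organs can be set beside each other. The median member was at 1.85 CPM per 1000 bases in heart, 2.08 in kidney and 3.26 in liver. Liver was the highest organ for 36 of the 42 members, and the order of liver, kidney, heart held for 25. In liver Cdc20 led at 19.6 ± 2.14 CPM per 1000 bases (SD, n = 3), and in heart Cenpa led at 15.9 ± 1.28 (SD, n = 3). In chow kidney Cdc20 was the highest member as well, at 6.29 ± 0.973. Kif15, a motor that backs up Kif11, ranked 41 of 42 in heart and 42 in kidney and liver, at 0.564 ± 0.224, 0.56 ± 0.217 and 0.565 ± 0.174. On the ketogenic diet the median member was at 0.303 CPM per 1000 bases in heart, 0.496 in kidney and 0.278 in liver. Cenpf was at 3.76 ± 0.719 in heart, where it ranked 6 of 42, but ranked 31 in kidney and 30 in liver.

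**Figure D4:**
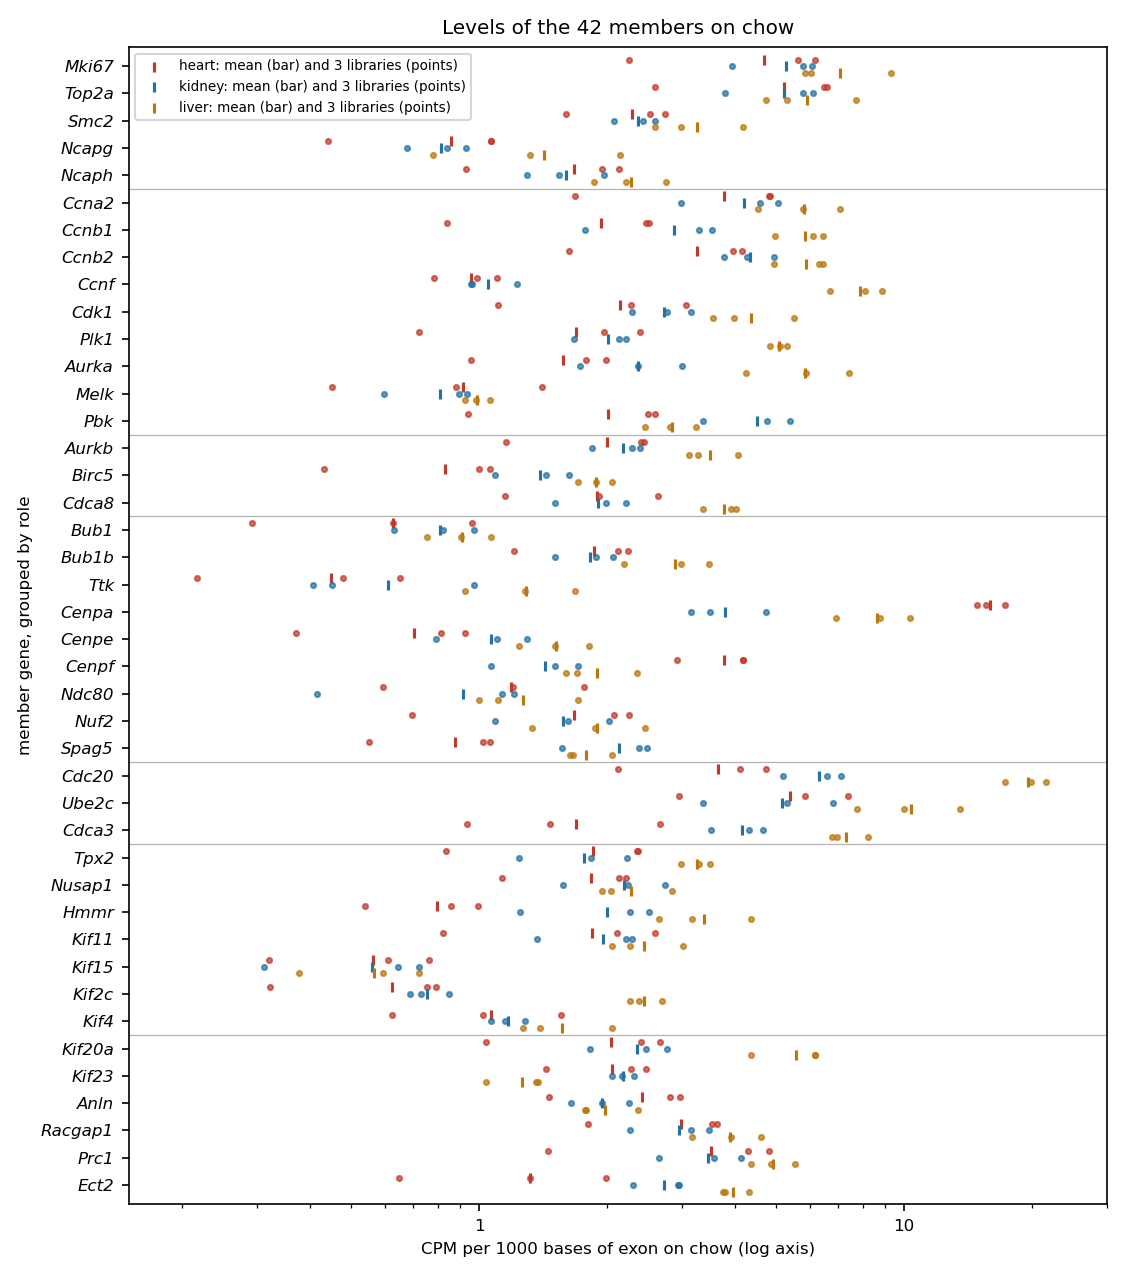
Each row is a member, and points are TMM-scaled CPM per 1000 bases of exon in the 3 chow libraries of heart (red), kidney (blue) and liver (brown) on a log axis, with a bar at the mean. Liver is the rightmost organ for most members, Cenpa and Cenpf are highest in heart, and the lowest heart point of nearly every row is chow heart 3.

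Which organ stood higher depends on how libraries are scaled. With TMM scaling, which sets the typical gene equal between organs, 19 members were higher in chow liver than in chow heart, where 37% of 15695 genes were higher, and 3 were lower, against 40.2%. In liver against kidney 13 were higher, against 34% of all genes, and 1 was lower, against 41%. In kidney against heart 6 were higher, against 37.8%, and 2 were lower, against 34.7%. With total counts alone the median of all genes moved by -0.57 for liver against heart, -0.95 for liver against kidney and 0.38 for kidney against heart. The member counts then became 9, 1 and 12, and the member medians 0.13, -0.44 and 0.52 in place of 0.69, 0.51 and 0.14. Leaving out chow heart replicate 3 or chow kidney replicate 2 took the kidney and heart count to 3, and the liver and kidney count was 7 without chow kidney replicate 3 and 8 without chow liver replicate 2. The direction for liver against kidney flips with the scaling. A change of scaling shifts all genes of a comparison by about the same amount. The place of the members relative to the median gene is therefore kept by construction and does not test the scaling.

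Some members kept a large organ difference on chow. Ccnf was at 24.4 CPM in liver against 2.97 in heart and 3.26 in kidney on the scale shared by the organs, a log2 difference of 3.04 ± 0.22 and 2.90 ± 0.21 (adjusted p = 3.23e-09 and 6.59e-09). Cdc20 was at 34.9 CPM in liver, 11.2 in kidney and 6.52 in heart, and liver exceeded heart by 2.43 ± 0.40 (adjusted p = 7.64e-05). Cenpa ran the other way, at 21.2 CPM in heart, 11.6 in liver and 5.08 in kidney, with -2.06 ± 0.18 for kidney against heart (adjusted p = 5.9e-08). Cenpf was at 41.8 CPM in heart, 21 in liver and 15.9 in kidney, with -1.39 ± 0.31 for kidney against heart (adjusted p = 0.00132) and an adjusted p of 0.0106 for liver against heart. Kif23 was lower in liver, at -0.71 ± 0.28 against heart and -0.80 ± 0.28 against kidney (adjusted p = 0.0317 and 0.0176).

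Neighbouring genes were read from lists. Of 59 other mitotic genes, 31 of 57 tested fell and 2 rose in heart, 40 of 59 fell in kidney and 44 of 56 fell in liver, with medians of -1.85, -1.72 and -2.21. In heart without chow replicate 3, 43 of 56 tested fell and 3 rose, with a median of -2.17. The condensin II subunit Ncapg2 had the smallest p in heart, at -1.25 ± 0.18 (adjusted p = 0.00952). The centrosomal kinase Nek2 had the smallest p in liver, at -2.73 ± 0.17 (adjusted p = 2.36e-06). The genes higher in heart were the kinetochore gene Zwint, at 0.45 (adjusted p = 0.0226), and the securin gene Pttg1, at 0.30 (adjusted p = 0.0404), both named after their values were seen.

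Genes of replication and S phase had medians nearer to 0 than the members. Of 37 tested, 10 fell in heart, 26 in kidney and 21 in liver, with medians of -0.66, -0.71 and -1.19, and 2 rose in liver. The heart count was 24 without chow heart replicate 3, with a median of -0.80. Tyms, which makes thymidylate, had the smallest p in heart, at -1.79 ± 0.23 (adjusted p = 0.00654). Rrm2, a subunit of ribonucleotide reductase, had the smallest p in kidney and liver, at -1.93 ± 0.19 (adjusted p = 0.0015) and -2.22 ± 0.21 (adjusted p = 4.4e-05). The liver rises were Mcm10 at 1.52 (adjusted p = 0.0022) and Gins4 at 0.46 (adjusted p = 0.016), also named after their values were seen. Of 11 G1 cyclins and kinases, 2 fell in kidney: Ccne1 at -1.44 ± 0.34 and Ccne2 at -1.35 ± 0.20, the cyclins that start S phase. In heart Cdk6 rose by 0.56 and in liver Cdk7 by 0.51. Leaving out chow heart replicate 3, 4 of the 11 fell in heart, among them the D-type cyclin genes Ccnd1 at -0.67 (adjusted p = 2.33e-05) and Ccnd3 at -0.32 (adjusted p = 0.0184).

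**Figure D5:**
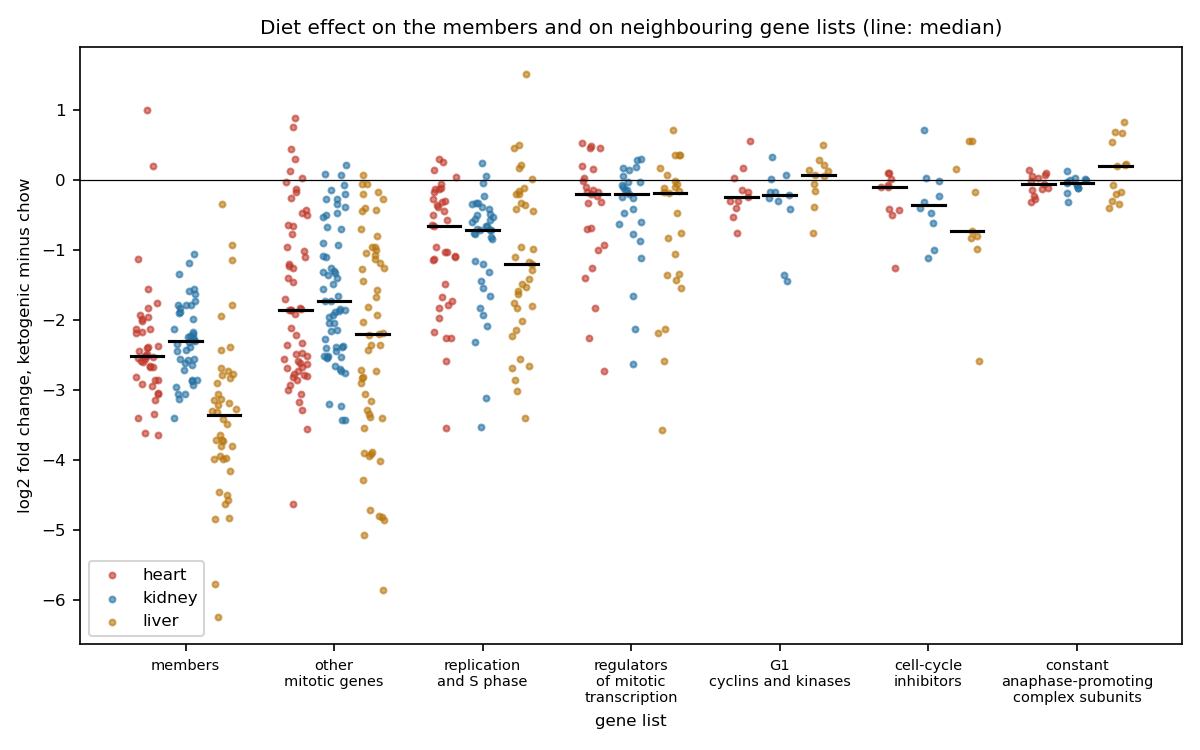
Points are log2 fold changes, ketogenic minus chow, of single genes in heart (red), kidney (blue) and liver (brown) for the 42 members and 6 neighbouring lists, with a line at each median. The medians of the members lie at -2.52, -2.29 and -3.36, those of other mitotic genes nearer to 0, those of G1 cyclins and kinases at -0.24, -0.21 and 0.08, and those of the constant anaphase-promoting complex subunits at -0.05, -0.04 and 0.20.

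Among 25 regulators of mitotic transcription, 5 fell and 2 rose in heart, 5 fell in kidney, and 8 fell and 2 rose in liver, with medians of -0.20, -0.19 and -0.18. The heart counts were 11 and 3 without chow heart replicate 3, and E2f1, E2f7, E2f8, Tfdp1, Rbl1 and Trp53 were the added falls. Foxm1, which switches on late cell-cycle genes, fell in all 3, by -2.25 ± 0.47 (adjusted p = 0.0321), -2.12 ± 0.28 (adjusted p = 0.00348) and -3.57 ± 0.27 (adjusted p = 5.91e-06). Mybl2, which encodes B-Myb, fell at -2.73 ± 0.55 in heart (adjusted p = 0.0234), from 1.65 ± 0.564 CPM to 0.213 ± 0.117 CPM. Its ketogenic hearts held 9, 2 and 2 reads. Mybl2 was not called in kidney, at -0.77 ± 0.25 (adjusted p = 0.0924), or liver, at -1.05 ± 0.49 (adjusted p = 0.118). E2f2 fell in heart and liver, E2f1 and E2f3 in liver, E2f7 in kidney and liver, and E2f8 in kidney, where it gave -2.63 ± 0.44 (adjusted p = 0.00862). The pocket protein gene Rbl2, whose product p130 is part of DREAM, rose in heart by 0.47 ± 0.08 (adjusted p = 0.0162) and was not called in kidney, at 0.17 ± 0.07 (adjusted p = 0.16), or liver, at 0.18 ± 0.09 (adjusted p = 0.168). Its relative Rbl1, which encodes p107, was at -0.70 ± 0.23 in heart (adjusted p = 0.0905) and fell at -0.59 ± 0.10 in kidney (adjusted p = 0.00935) and -1.34 ± 0.25 in liver (adjusted p = 0.00226). Of the genes for the MuvB core, Rbbp4 fell in heart at -0.33 ± 0.08 (adjusted p = 0.0362) and rose in liver by 0.37 ± 0.11 (adjusted p = 0.019), and Lin52 rose in liver by 0.72 ± 0.20 (adjusted p = 0.0157). Lin9, Lin37 and Lin54 were called in no organ. Tfdp2, which encodes a partner of E2F proteins, was the other gene that rose in heart, by 0.53 ± 0.10 (adjusted p = 0.0186). Trp53, which encodes p53, fell in liver by -0.83 ± 0.25 (adjusted p = 0.0464).

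Cdkn1a, the cell-cycle inhibitor p21 and a target of p53, fell along with the members in all 3 organs. Its log2 fold changes were -1.25 ± 0.26 in heart, -1.11 ± 0.23 in kidney and -2.59 ± 0.39 in liver (adjusted p = 0.0354, 0.0187 and 0.00242). It is counted among the regulators too, and in heart 1 of 10 tested inhibitors, Cdkn1a itself, fell, also without chow heart replicate 3 (-1.41, adjusted p = 0.00727). In kidney Cdkn1c fell at -0.61 ± 0.09 and Ccng1 by -0.39 ± 0.09, and in liver Cdkn2c and Ccng2 fell at -0.98 ± 0.19 and -0.83 ± 0.22 while Ccng1 rose by 0.56 ± 0.12.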

How the data were processed

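RNA from heart, kidney and liver of mice on 2 diets was sequenced as stranded mRNA libraries, with an RNA integrity number above 4 per the labels' protocols. The submitters' processing notes list bcl2fastq, HISAT2 2.1.0, SAMtools, featureCounts 1.5.0 and build mm9. The authors deposited 1 table per library of estimated counts per gene, some not whole, and per the file headers reads were counted by strand (setting 2). The estimated counts were rounded, which moved no library total by more than 0.00087%. Library totals ran from 16135276 to 23835383.

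Each organ was tested with edgeR 4.0.16 (R 4.3.3; robust quasi-likelihood, its default low-count filter, TMM scaling), with Benjamini-Hochberg adjustment over all genes tested and a threshold of 0.05. Organs were compared in 1 model of 6 groups. Near-identical libraries were summed. Levels are CPM with TMM scaling within the organ (over all libraries for levels compared between organs), as are limits for a count of 0, which cover counting error only, and mean ± SD is over samples after summing. DESeq2 1.42.0 and other settings were alternatives, and the tests were checked on simulated data.

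The members and lists were chosen with earlier results of these data known. Named genes are every member that did not pass, representatives of each role, the 2 lowest and 2 highest members per organ, and the smallest p-values of each list.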

Additional observations from a re-analysis of the deposited data

Results flagged for a closer look

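The diet effect differed between organs for 18 pairs of member and comparison, each by a test of the difference itself in the model of 6 groups. They were 2 of 42 members for heart against kidney, where 2.5% of all genes differed, and 8 of 42 each for heart and kidney against liver, a share below the 23.5 and 21.8% of all genes. Of heart minus kidney, the differences in log2 fold change were 3.95 for Cenpf and 1.80 for Cenpa. Of heart minus liver, they were 5.68 for Cenpf, 4.38 for Cdc20, 3.30 for Hmmr, 2.53 for Kif2c, 2.04 for Kif4, 1.95 for Aurka, 1.18 for Cenpa and -1.13 for Ccnf. Of kidney minus liver, they were 4.08 for Cdc20, 3.10 for Hmmr, 2.70 for Plk1, 2.23 for Kif2c, 2.07 for Spag5, 1.88 for Cenpe, 1.49 for Nusap1 and -1.86 for Ccnf. Ketogenic livers had 2, 13 and 4 reads for Cdc20 and 5, 4 and 1 for Hmmr.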

How the results depend on the processing

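All 42 members in kidney and liver, and 40 in heart, had lower levels under every setting that tested them. Ttk in heart went untested under 1 setting. Of members that fell, the heart count of 33 became 2 at an adjusted p under 0.01, 3 against a 1.5-fold change, 0 without the near-identical pair (added after seeing the data) and 0 to 40 leaving out 1 library. The kidney count of 39 became 22, 23 at 1.5-fold and 20 to 41 leaving out 1 library, and the liver count 40 to 42. With the replicate block the kidney count was 25. In heart and liver, near-identical libraries apart, it was 40 and 42. No share of all genes under the same setting stands beside these counts. Deviations of same-numbered libraries correlated at -0.14 to 0.10, so the numbers were not taken to pair the samples. Across organs, which the labels do not tie to the same mice, 2 of 18 such correlations passed 0.1 (-0.09 to 0.16), and organs were compared with no block; mice shared between organs would make those libraries not independent.

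Members differing in diet effect between heart and kidney numbered 6 without chow heart 3 and ketogenic kidney 1 together, and 2 to 4 leaving out 1 library. Between heart and liver there were 13 by DESeq2, 13 with near-identical libraries apart and 3 to 9 leaving out 1. Between kidney and liver there were 14, 13, 23 without those 2 libraries, and 4 to 15. These counts have no share of all genes under the same setting beside them. Chow counts by total counts were 12 (kidney over heart), 9 (liver over heart) and 1 (liver over kidney). Leaving out 1 library gave 3 to 7, 15 to 20 and 7 to 13, and without those 2 libraries liver over kidney gave 25. By total counts liver minus heart reversed to -0.06 for Smc2, and liver minus kidney to -0.50 for Smc2, -0.28 for Bub1b, -0.14 for Cdca3, -0.89 for Nusap1, -0.93 for Anln and -0.56 for Racgap1. The cause was not tested, beyond that this scaling shifts all genes.

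Total counts moved the share of rises among all genes called from 51.8 to 24.4% in heart, with all genes shifted by -0.14, and from 39.7 to 25.3% in kidney. For diet differences it went from 56.6 to 40.2%, 52.4 to 27.1% and 51.4 to 31%, and for chow levels from 52.1 to 68.7%, 47.9 to 29.4% and 45.3 to 14.7%, in the order above. Depth limits the ketogenic values: 22 of 42 members had under 10 counts in ketogenic liver 3.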
